A study of Drosophila melanogaster with 10 samples.

Results

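The 224 array probes described here had a moderately positive log ratio between the sexes in larval genital imaginal discs of both wild-type strains of Drosophila melanogaster that were studied. They were chosen by the deposited values themselves. A probe was eligible when it had a value on at least 3 of 5 Berlin arrays and at least 3 of 5 Canton S arrays. It became a member when every value it had was above 0 and the average of its Berlin mean and its Canton S mean was at least 1 and below 3 on the log2 scale, that is from 2-fold to just under 8-fold. This gave 224 of 4514 eligible probes (4.96%), out of 15744 probes in the table, of which 10022 had a value on some array. A further 97 eligible probes were positive throughout with an average of 3 or more and are called strongly positive below, and 11 were positive throughout with an average below 1.

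Each array compared male with female discs of one strain directly, both labelled RNA samples being hybridised together, on 5 Berlin and 5 Canton S arrays. Larvae were raised at 25 °C and dissected once the gut had cleared near the end of the third instar, and about 50 to 100 discs were pooled for an RNA extract. Both strains are wild type, and no transgene is given for either. Cy5 marked the female sample on Berlin replicates 1, 2 and 3 and Canton S replicates 2 and 3, and Cy3 marked it on the rest.

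The genital disc is a compound primordium with a female genital, a male genital and an anal part. In each sex one of the genital parts grows and forms the internal and external genitalia, while the other stays small. Which part grows depends on the sex-specific products of doublesex, the gene at the end of the somatic sex-determination cascade. A disc ratio therefore mixes tissue make-up and expression, and more cells of a type cannot be told apart from more RNA per cell. The probes carry only a printing plate and a well position, the deposited table gives no gene for them, and 0 of their identifiers matched a reference table of 17872 genes. Gene functions and genome positions could therefore not be given, the tissue could not be checked against its markers, and the members are described by their values, positions and missing cells.

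The sign needs care. The sample descriptions word the comparison as female to male, so a positive value may mean a higher female signal. No source used here states the numerator or whether ratios were turned for the dye swap. A probe whose ratio followed the dye and not the sex would also keep one sign on all arrays if the values had not been turned. The sign alone cannot tell these readings apart. The log base is likewise not stated and was taken as 2, so every fold value rests on it.

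The arrays differed in spread and in how many probes they measured. Between 2848 and 8724 probes had a value on an array. The median absolute deviation over all probes was 0.37 to 0.65 on Berlin replicates 2 to 5 and 0.88 on Canton S replicate 3, against 1.90 on Berlin replicate 1 and 1.22 to 2.17 on Canton S replicates 1, 2, 4 and 5. Replicates are separate biological samples per the series' design text. The number of arrays limits the precision of each value.

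Averages of the 224 probes ran from 1.02 to 2.99 with a median of 2.19, a 4.57-fold ratio, and quartiles of 3.39-fold and 6.27-fold. These values chose the members and are given as a description. At the lower limit, the members just inside stood at 1.02 and 1.02, and the probes just outside at 0.99 and 0.97. At the upper limit, the members just inside stood at 2.99 and 2.98, and the probes just outside at 3.01 and 3.03. No gap separated the members from their neighbours at either limit, so both limits cut a continuous range.

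The members' level depended strongly on the array. On Berlin replicates 1 to 5 their median log2 ratio was 3.57, 1.40, 1.71, 2.75 and 2.36, and on Canton S replicates 1 to 5 it was 2.27, 3.26, 2.21, 3.31 and 1.11. The lowest array, Canton S replicate 5, thus had a median of 2.15-fold and the highest, Berlin replicate 1, of 11.9-fold. Over all eligible probes the array medians lay between -0.26 and 0.51. The strains overlapped fully in this respect, with a mean of the array medians of 2.36 ± 0.86 in Berlin and 2.43 ± 0.91 in Canton S (SD, n = 5 arrays each). The same held for dye orientation, with 2.43 ± 0.95 where the female sample carried Cy5 and 2.36 ± 0.81 where it carried Cy3 (SD, n = 5 arrays each).

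**Figure D1:**
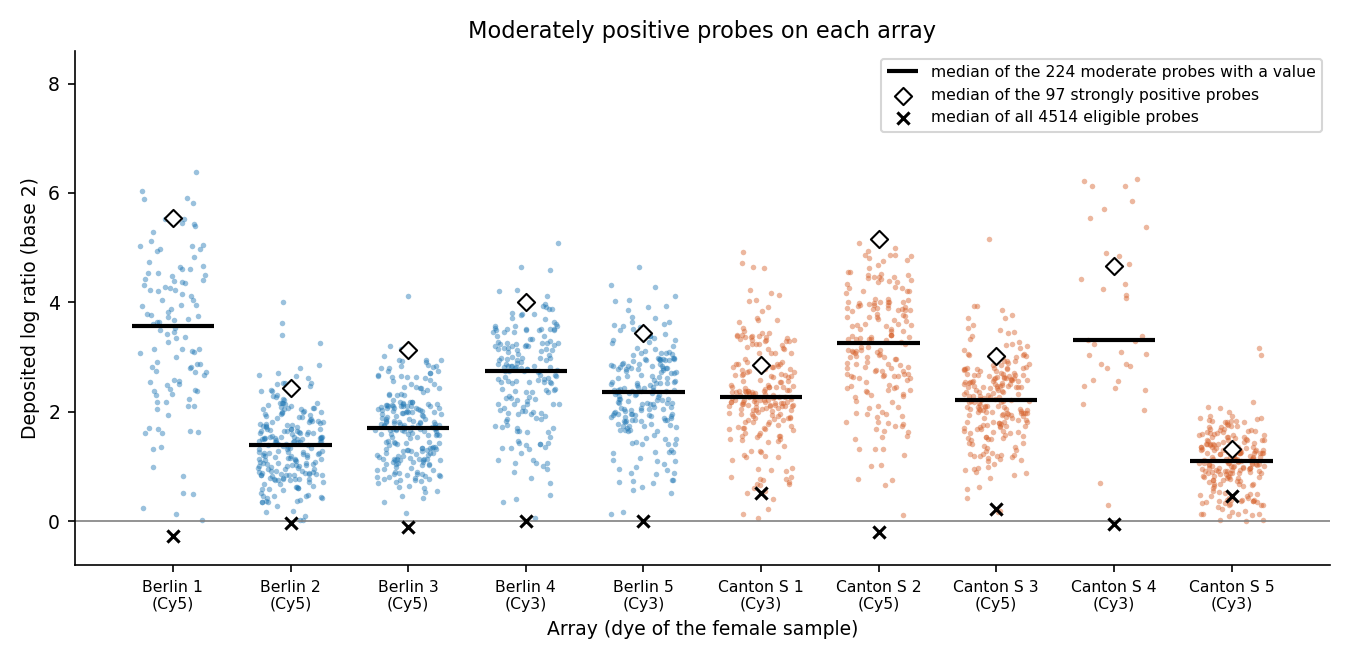
Deposited log2 ratio (y axis) of each moderately positive probe with a value on each of the 10 arrays (x axis, with the dye of the female sample). Black bars are the members' medians, diamonds the medians of the 97 strongly positive probes and crosses the medians of all 4514 eligible probes. The members' medians run from 1.11 on Canton S replicate 5 to 3.57 on Berlin replicate 1.

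Among all measured probes of an array, ranked by the same values that chose the members, the median member stood at the 92.8th to the 97.6th percentile on 8 of the 10 arrays. It stood at the 88.7th percentile on Canton S replicate 1 and at the 71.5th on Canton S replicate 5. Canton S replicate 5 also separated the members least from the strongly positive probes. Its medians were 1.11 and 1.33, a difference of 0.22 on the log2 scale, whereas the difference was 0.58 on Canton S replicate 1 and 0.81 to 1.97 on the other arrays. For 122 of the 213 members measured on Canton S replicate 5 (57.3%), this array held their lowest value. Berlin replicate 2 held the lowest value for 60 of 219 members measured there. The highest value fell on Canton S replicate 2 for 50 of 182 members measured there (27.5%). It fell on Berlin replicate 1 for 49 of 114 (43.0%), on Canton S replicate 1 for 49 of 220 (22.3%) and on Canton S replicate 4 for 13 of 37 (35.1%).

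The condition that every value be above 0 also removed probes with an average in the same range, most often through Canton S replicate 5. Of 290 eligible probes with an average from 1 to below 3, 224 (77.2%) were positive throughout. Of the other 66, 55 fell at or below 0 on a single array, 10 on 2 arrays and 1 on 3 arrays. Canton S replicate 5 was that single array for 33 of the 55, and it gave 43 of the 66 probes a value not above 0. Canton S replicate 1 did so for 13, and Berlin replicate 3 and Canton S replicate 3 for 0. In all, 47 of the 66 (71.2%) were not above 0 on Canton S replicate 1 or 5.

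Members were often not measured. Only 30 of the 224 (13.4%) had a value on all 10 arrays, against 2284 of the 4514 eligible probes (50.6%) and 30 of the 97 strongly positive probes (30.9%). A probe with fewer values meets the sign condition more easily, so the rule itself bears on these shares, and nothing further is read from them. The gap was widest on 2 arrays. On Canton S replicate 4, 37 of 224 members (16.5%) had a value, against 59.0% of eligible probes, and on Berlin replicate 1, 114 members (50.9%) did, against 91.0%. On Berlin replicates 2, 3 and 5 and Canton S replicates 1 and 3 the members' share was between 92.9% and 99.1%, and in each case at or above that of the eligible probes.

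The rule applied without Canton S replicate 4 chose 234 probes, all 224 members among them, and 47 of these had a value on that array. Few values on that array thus also hold for probes chosen without it. Any spot filter of the authors is unknown here, and its part in these shares was not tested.

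**Figure D2:**
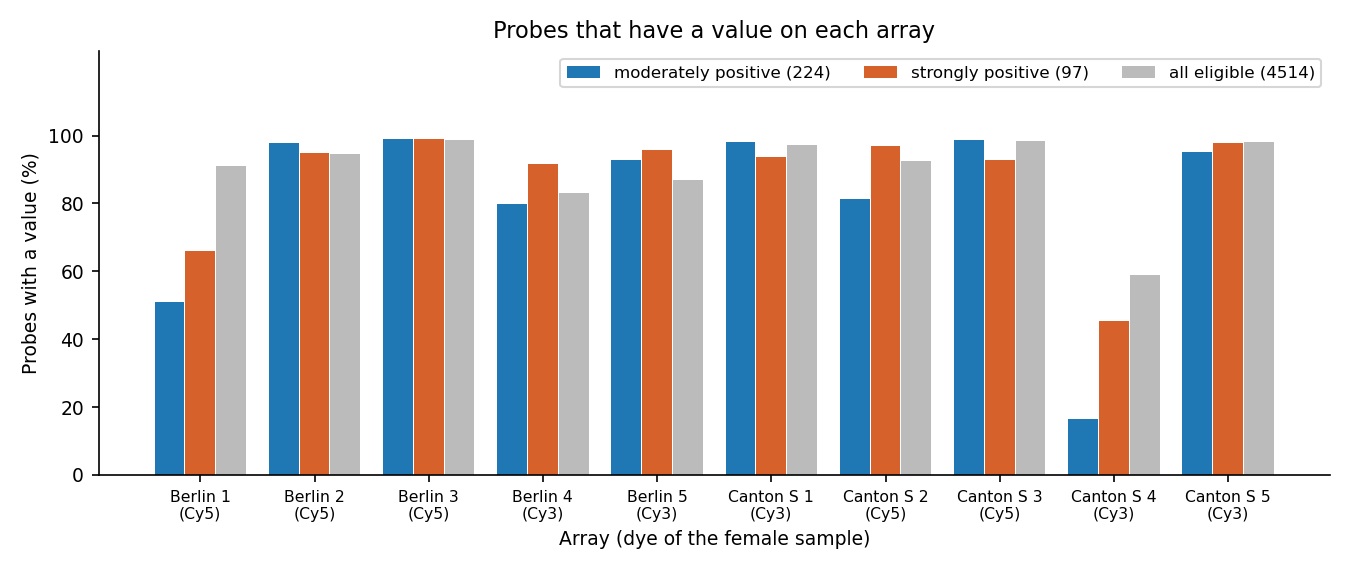
Percentage of the 224 moderately positive, 97 strongly positive and 4514 eligible probes that have a value (y axis) on each array (x axis, with the dye of the female sample). The members fall to 16.5% on Canton S replicate 4 and 50.9% on Berlin replicate 1.

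Because all 10 arrays chose the members, the sign was read on arrays that the choice did not use. The rule was applied to 9 arrays at a time and the probes it chose were read on the array left out. It chose 160 to 250 probes in a round. Of 1533 values on the arrays left out, 1477 (96.3%) were above 0, against 53.0% of all values of eligible probes in the same rounds. The share was 96.1% ± 5.40 over the 10 arrays, and 52.7% ± 7.95 for the eligible probes (SD, n = 10 arrays). It was 100.0% on Berlin replicate 3 (158 of 158) and Canton S replicate 3 (162 of 162). It was lowest on Canton S replicate 5, at 82.2% (139 of 169) with a median log2 ratio of 0.96, against 59.5% of eligible probes there. On the other arrays it lay between 93.6% and 99.4%. The chosen probes' medians on the arrays left out ran from 0.96 to 3.81, against -0.22 to 0.47 for the eligible probes, so the lowest median of the chosen probes lay above the highest of the eligible ones. These shares describe signs. Probes of one array are not replicates, and no test was made of them.

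**Figure D3:**
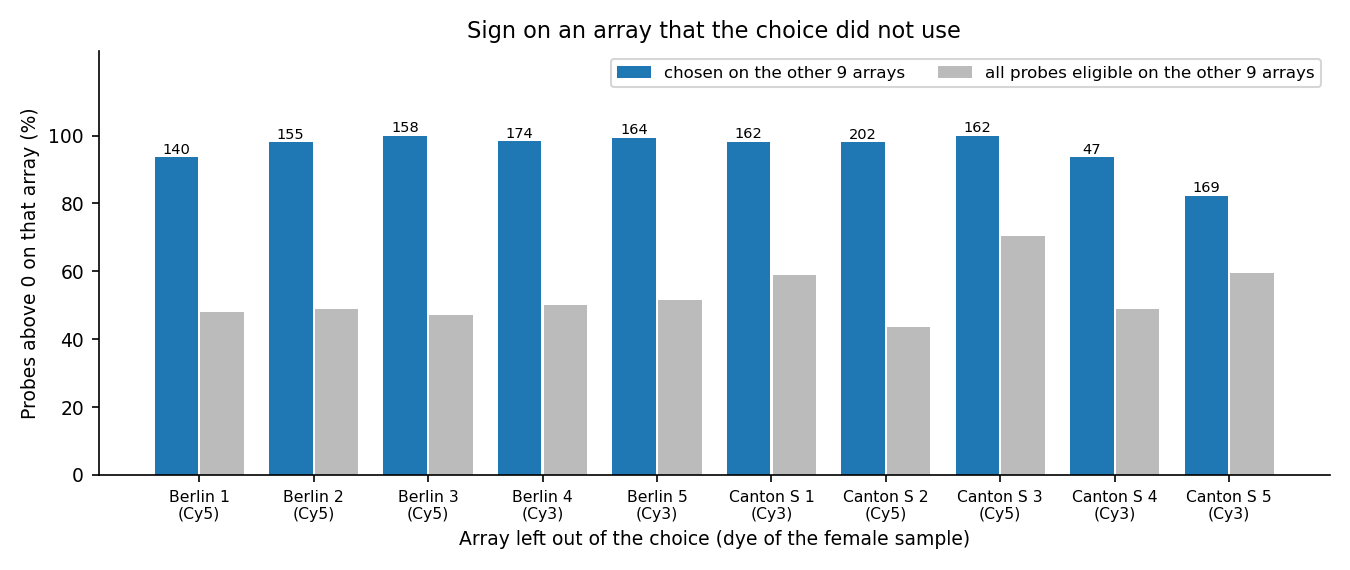
Percentage of probes above 0 (y axis) on the array left out of the choice (x axis, with the dye of the female sample), for probes chosen by the rule on the other 9 arrays (blue, number with a value on top) and for all probes eligible on those 9 arrays (grey). The blue bars lie between 82.2% and 100.0%, the grey bars between 43.7% and 70.4%.

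Choosing on one strain and reading on the other gave a stricter reading. The same limits applied to the 5 Berlin arrays alone chose 273 probes. In Canton S, 201 of these (73.6%) were above 0 on every measured array and 0 were below 0 on every one, against 11.4% and 1.99% of eligible probes. Their median Canton S mean was 2.00, with quartiles of 1.32 and 2.54, and the eligible probes' was 0.019. Chosen on Canton S alone, 314 probes were read in Berlin. There 237 (75.5%) were above 0 throughout and 33 (10.5%) below 0 throughout, against 13.6% and 17.6% of eligible probes, and their median Berlin mean was 1.81 with quartiles of 0.94 and 2.65. Most probes chosen in one strain thus kept the positive sign in the other, but the Canton S arrays also chose some that were negative on every Berlin array.

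The arrays of the other strain also allow a test that the choice did not use. Berlin was fitted by itself, and 179 of the 273 Canton S choices that could be tested there (65.6%) were called positive with limma and a Benjamini-Hochberg adjusted p below 0.05. Over all 4347 probes tested in that fit, 7.73% were called positive. Canton S fitted by itself called 116 of 273 Berlin choices positive (42.5%), against 4.6% of 5912 probes tested. No tested choice of either strain was called negative in the other. Negative calls were rare in these fits, 18 of all 4347 probes in Berlin and 5 of all 5912 in Canton S, so nothing is read from that. Of the 314 Canton S choices, only the 273 with Berlin values in both dye orientations were tested. How many of the 33 below 0 on every Berlin array were among those tested was not counted. At an unadjusted p below 0.05, 240 of the 273 Canton S choices tested were positive in Berlin (87.9%), against 11.4% of all probes tested there (494 of 4347). In Canton S, 216 of the 273 Berlin choices were (79.1%), against 9.02% of all (533 of 5912).

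The counts of calls rested on single arrays. The Canton S count was 0 without Canton S replicate 1, 2 or 3, when 1, 0 and 1 probes were called positive in all. At an unadjusted p below 0.05, 131 of 226 tested Berlin choices were positive without Canton S replicate 1, where 279 of all 4767 probes were. Without replicate 2 there were 164 of 257 (438 of all 5343), and without replicate 3 there were 155 of 224 (313 of all 4698). The count was 72 without replicate 5 (182 of all 4795 probes) and 194 without replicate 4 (465 of all 5882). The Berlin count was 16 without Berlin replicate 4 (32 of all 3960), 70 without replicate 5 (130 of all 3793) and 94 without replicate 3 (181 of all 3989). It was 122 without replicate 2 (235 of all 4153) and 224 without replicate 1 (423 of all 4208). A dye ratio in unturned values would carry over from one strain to the other too, and cannot be told apart from sex here.

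Reading across dye orientations gave weaker agreement in sign. The limits applied to the 5 arrays with the female sample in Cy5 chose 429 of 4273 probes with 3 or more values in each orientation. On the arrays with the female sample in Cy3, 189 of them (44.1%) were above 0 throughout and 37 (8.62%) below 0 throughout, against 16.5% and 11.1% of eligible probes. Their median mean was 0.69, with quartiles of -1.29 and 2.08, and 238 of the 429 (55.5%) had a mean above 0 there, close to the 52.4% of all eligible probes. In the opposite direction 359 probes were chosen. Of these, 253 (70.5%) were above 0 throughout and 16 (4.46%) below 0 throughout, against 21.9% and 13.1% of eligible probes. Their median mean was 1.82, with quartiles of 0.41 and 2.71, and 276 of the 359 (76.9%) had a mean above 0, against 52.5% of eligible probes.

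The members' standard errors come from one linear model per probe with the strain and the dye orientation as terms. In the mean of both strains, 214 of the 224 members were called positive (limma, Benjamini-Hochberg adjusted p below 0.05), where 8.2% of all 4514 tested probes were. The rule used these values, so nothing is read from that count. The other 10 members had estimates between 1.02 and 1.67 and between 6 and 9 measured arrays. The standard error of a member's mean ran from 0.23 to 0.53 on the log2 scale, with a median of 0.33. A member's SD over its arrays had a median of 0.93, with 0.78 over Berlin and 1.00 over Canton S arrays, where all eligible probes had 1.05, 0.63 and 1.24.

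The 2 members with the largest averages among the 30 measured on all arrays were DAC013I06 and DAC007H10. DAC013I06, on plate 13, had log2 ratios of 4.64, 2.27, 2.57, 3.32 and 3.93 on Berlin replicates 1 to 5 and of 1.57, 5.09, 2.63, 2.83 and 1.06 on Canton S replicates 1 to 5. Its mean was 2.99 ± 0.36 (SE). DAC007H10, on plate 7, had 6.04, 1.40, 2.64, 3.51 and 2.70 in Berlin and 2.48, 4.94, 2.05, 3.23 and 0.80 in Canton S, with a mean of 2.98 ± 0.44 (SE). In both probes Berlin replicate 1 and Canton S replicate 2 were highest, Canton S replicate 5 was lowest, and the strains overlapped.

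DAC039J17 and DAC027J21 had the smallest spread over the 10 arrays among the same 30 members. DAC027J21, on plate 27, had 3.74, 1.51, 1.87, 2.95 and 2.07 on Berlin replicates 1 to 5 and 2.12, 3.61, 1.85, 4.25 and 1.35 on Canton S replicates 1 to 5. Its mean was 2.53 ± 0.33 (SE), and its strain means of 2.43 and 2.64 differed by less than the SD within either strain. DAC039J17, on plate 39, had 2.19, 0.020, 1.66, 3.25 and 2.03 in Berlin and 0.66, 1.82, 0.99, 0.29 and 1.00 in Canton S. Its mean of 1.39 ± 0.29 (SE) was the lowest of the 30, and 2.32 with the arrays scaled, and its value on Berlin replicate 2 lay close to 0. DAC039J17 and DAC027J21 had SDs of 0.98 and 1.02 over the arrays. Both lay above the median of 0.93 over all 224 members, most of which had fewer values.

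**Figure D4:**
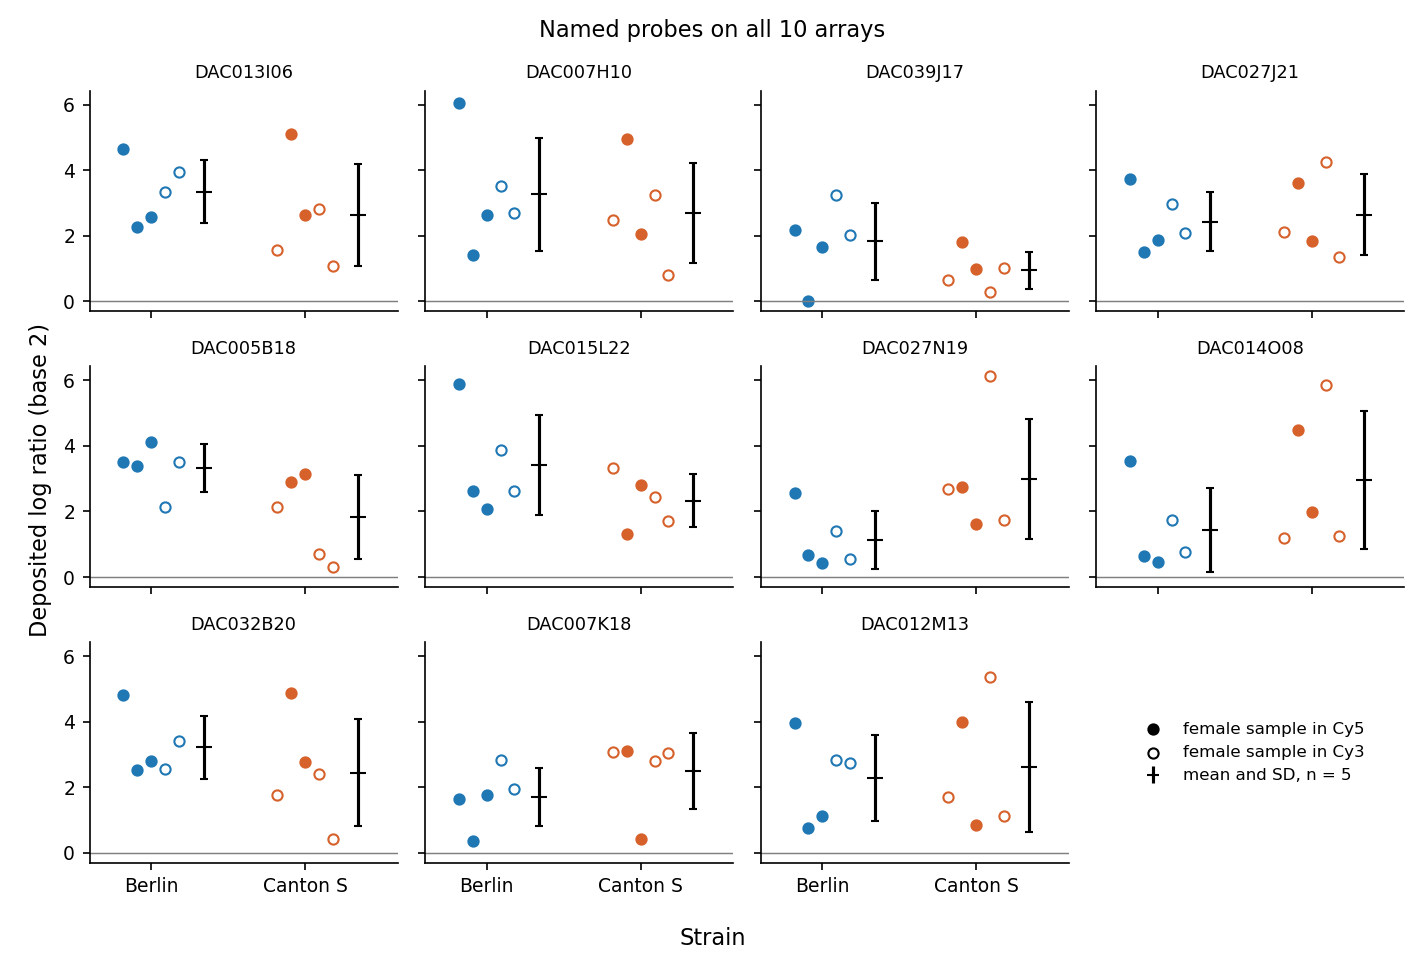
Deposited log2 ratio (y axis) of the 11 named probes on the Berlin and Canton S arrays (x axis). Filled points have the female sample in Cy5 and open points in Cy3, and the bars give the mean and SD of 5 arrays. The strains' points overlap in each panel.

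The rule fixed the average of the strains and left their difference free within the sign condition, so the strain difference was tested. None of the 224 members differed between Berlin and Canton S (limma, smallest adjusted p = 0.871), and of all 4514 tested probes 0% were called. At an unadjusted p below 0.05 there were 5 members (2.23%), against 3.39% of all tested probes. Chosen after their values were seen, these were DAC010M08, DAC038F16, DAC021B09, DAC006M21 and DAC005B18, of which the first 4 were higher in Canton S. Estimates of Berlin minus Canton S ran from -2.13 to 1.64 on the log2 scale with a median of -0.13. The 95% interval of a member's difference had a median half-width of 1.49, so differences of up to 2.81-fold lie within it where the estimate is 0.

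As deposited, 97 members (43.3%) had the higher estimate in Berlin and 127 in Canton S, against 49.0% in Berlin for all tested probes. This split depended on how arrays were set against each other. With each array centred on its median, 131 members (58.5%) were higher in Berlin, but the median difference of all tested probes then moved from -0.019 to 0.19 while the members' moved to 0.12. After scaling every array to a common median absolute deviation, 216 members (96.4%) were higher in Berlin, with a median of 2.75, while the median of all tested probes was -0.0028. Then 128 members (57.1%) had an unadjusted p below 0.05, against 12.3% of all tested probes, and 0 were called (limma). Scaling shrinks the widely spread arrays, of which 4 are Canton S and 1 is Berlin. It also stretches the narrowly spread arrays, which are mostly Berlin, and so enlarges the members' positive values there. The narrowest were Berlin replicate 4, with a median absolute deviation of 0.37, and Berlin replicate 5, with 0.39. Leaving out single arrays moved the share higher in Berlin between 29.1%, without Canton S replicate 5, and 61.3%, without Berlin replicate 2. The direction of the members' strain difference is therefore not settled.

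**Figure D5:**
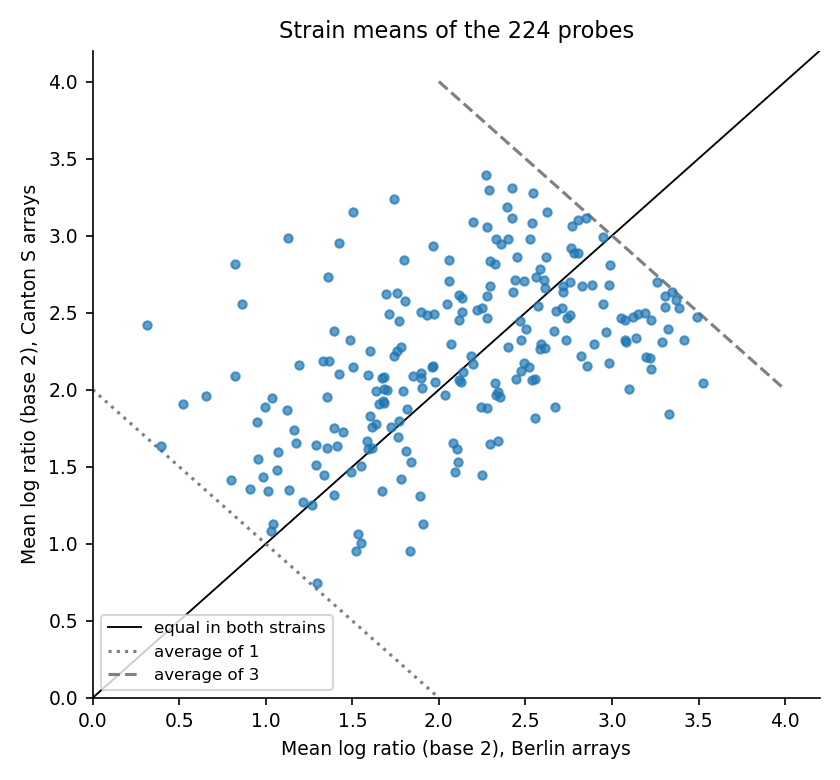
Mean log2 ratio over the Canton S arrays (y axis) against that over the Berlin arrays (x axis) for each of the 224 members, with a line for equal strain means and lines for averages of 1 and 3, the limits of the rule. The points lie on both sides of the line of equality, from 0.31 to 3.53 in Berlin and from 0.74 to 3.39 in Canton S.

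Among members measured on all arrays, DAC005B18 and DAC015L22 were highest in Berlin relative to Canton S. DAC005B18, on plate 5, had 3.50, 3.40, 4.12, 2.13 and 3.50 on Berlin replicates 1 to 5 and 2.15, 2.89, 3.13, 0.70 and 0.32 on Canton S replicates 1 to 5. Its difference was 1.21 ± 0.51 (SE; limma adjusted p = 0.871), and only Berlin replicate 4 reached down into the Canton S values. DAC015L22, on plate 15, had 5.89, 2.62, 2.06, 3.89 and 2.64 in Berlin and 3.32, 1.33, 2.82, 2.43 and 1.72 in Canton S, a difference of 1.11 ± 0.73 (SE; limma adjusted p = 0.871). Its strains overlapped between 2.06 and 3.32. Without Berlin replicate 1 its difference was 0.54, and with array weights it was 0.21. With the arrays scaled, the differences of DAC005B18 and DAC015L22 were 4.71 and 4.67.

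DAC027N19 and DAC014O08 were lowest. DAC027N19, on plate 27, had 2.55, 0.68, 0.43, 1.42 and 0.56 on Berlin replicates 1 to 5 and 2.69, 2.74, 1.62, 6.12 and 1.75 on Canton S replicates 1 to 5. Its difference was -1.74 ± 0.82 (SE; limma adjusted p = 0.871), and only Berlin replicate 1 overlapped the Canton S values. DAC014O08, on plate 14, had 3.53, 0.63, 0.46, 1.74 and 0.76 in Berlin and 1.18, 4.50, 1.98, 5.85 and 1.25 in Canton S, a difference of -1.60 ± 0.97 (SE; limma adjusted p = 0.871). In both probes Canton S replicate 4 was the highest array. Without it the difference was -1.08 for DAC027N19 and -0.91 for DAC014O08, and with the arrays scaled it was -0.36 and -0.15. Without Canton S replicates 1 and 5 together, a setting chosen after seeing the data, DAC014O08 had -2.73.

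The difference between dye orientations was tested in the same fit, as the female sample in Cy5 minus in Cy3. No member was called (limma, smallest adjusted p = 0.139), nor was any of the 4514 tested probes (0%). At an unadjusted p below 0.05 there were 7 members (3.12%), against 27.4% of all tested probes. The sign condition removes probes with large opposite values in the orientations, so nothing is read from this gap. Estimates ran from -1.68 to 2.16 with a median of 0.11, and 127 members (56.7%) were higher with the female sample in Cy5. With centred arrays that share was 70.5%, and with scaled arrays 8.93% with a median of -1.49, so the direction is not settled either. With array weights 2 members were called, and 102 of all tested probes. In that fit 59 members (26.3%) had an unadjusted p below 0.05, against 26.3% of all tested probes. The share of members higher with the female sample in Cy5 was then 16.1%.

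DAC005B18, named above, and DAC032B20 had the highest dye estimates among members measured on all arrays. DAC005B18 averaged 3.41 ± 0.46 with the female sample in Cy5 and 1.76 ± 1.28 in Cy3 (SD, n = 5 arrays each), an estimate of 1.41 ± 0.51 (SE; limma adjusted p = 0.142). DAC032B20, on plate 32, had 4.82, 2.53, 2.82, 2.55 and 3.42 on Berlin replicates 1 to 5 and 1.78, 4.87, 2.78, 2.40 and 0.42 on Canton S replicates 1 to 5. Its estimate was 1.35 ± 0.68 (SE; limma adjusted p = 0.213), and it was 0.73 without Canton S replicate 2, 0.77 without Canton S replicates 1 and 5 together and 0.18 with array weights. With the arrays scaled, both estimates turned negative, to -0.11 and -0.80.

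DAC007K18 and DAC012M13 had the lowest dye estimates. DAC007K18, on plate 7, had 1.65, 0.36, 1.77, 2.84 and 1.94 in Berlin and 3.08, 3.10, 0.42, 2.80 and 3.04 in Canton S. Its estimate was -1.17 ± 0.56 (SE; limma adjusted p = 0.192), and of the arrays with the female sample in Cy5 only Canton S replicate 2 lay above the lowest Cy3 value. DAC012M13, on plate 12, had 3.95, 0.76, 1.12, 2.82 and 2.73 in Berlin and 1.71, 3.99, 0.84, 5.38 and 1.13 in Canton S, with an estimate of -0.58 ± 0.93 (SE; limma adjusted p = 0.685). Its orientations overlapped. Leaving out single arrays moved the DAC012M13 estimate from -1.24, when Canton S replicate 2 was dropped, to -0.0012, when Canton S replicate 4 was, and dropping Canton S replicate 3 gave -0.030. The DAC007K18 estimate was -0.65 without Canton S replicate 3. With the arrays scaled, DAC007K18 had -2.95 and DAC012M13 -2.94, and with array weights DAC012M13 had -1.50.

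The order of the members was shared within Berlin and much less within Canton S, and between the strains it depended on the Canton S array. Across members, the 10 pairs of Berlin arrays had Pearson correlations from 0.25 to 0.74 with a median of 0.49, and the 10 Canton S pairs from 0.0048 to 0.51 with a median of 0.15. The 25 pairs with one array of each strain had a median of 0.072. With the Berlin arrays, Canton S replicate 2 had 0.36 to 0.53 and replicate 3 had 0.19 to 0.48. Canton S replicates 1, 4 and 5, all with the female sample in Cy3, had -0.53 to 0.15. Pairs of the same dye orientation had a median of 0.36 over the members, and pairs of opposite orientation 0.15. Whether strain or dye orientation lay behind these values was not tested. The highest pair was Berlin replicates 2 and 3 (217 members), and within Canton S it was replicates 1 and 5, at 0.51. The eligible probes outside the members and the strongly positive ones had medians of 0.36 within Berlin and -0.15 within Canton S. For the pairs with one array of each strain their median was 0.15, above that of the members. Over those probes Berlin replicates 2 and 3 had 0.51, and Canton S replicates 1 and 5 had 0.80. Berlin replicate 1 and Canton S replicate 5, which differ in dye orientation, ran opposite to each other over those other probes, at -0.78, and had -0.11 over the members. The 9 pairs with Canton S replicate 4 rest on 30 to 37 members. These correlations run across probes of shared arrays, within the narrow range of averages the rule allows, and are descriptions only.

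The members were spread over the printing plates. They came from 38 of the 41 plates, with a median of 6 and at most 11 on a plate. Plates 1, 2 and 23 had none, of 7, 36 and 136 eligible probes. Plate 13 had the most, 11 of 90 eligible probes (12.2%), followed in share by plate 9 with 9 of 85 (10.6%). Over the 16 well rows the members' share of eligible probes lay between 3.45% and 6.92%, and over the 24 well columns between 1.10% and 7.41%. What each plate holds is unknown here, and no test of position was made.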

How the data were processed

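The series' value table was analysed: 15744 probes by 10 arrays, and 32 control rows left out. Per the labels' protocols, poly(A)+ RNA was amplified to aminoallyl cRNA and coupled to Cy5 or Cy3. The deposited values are treated as log2 ratios of the channels. The submitters' processing notes name limma without a version, and nothing read here states the log base, background correction, normalization or spot filter. Arrays were grouped by strain from their titles.

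The 4514 probes with a value on at least 3 arrays per strain were fitted in R 4.3.3 with limma 3.58.1, with strain coded so that the coefficients are the mean of both strains, Berlin minus Canton S and the dye difference. Missing cells were left missing. P-values are two-sided, Benjamini-Hochberg adjusted over all probes tested, with calls below 0.05. The fit was checked on simulated data. Alternatives were centring, scaling, array weights, no dye term, a replicate block, full measurement and leaving out each array. Fits of one strain by itself need 3 of its arrays and both orientations. Figures used matplotlib 3.10.9.

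Named probes were taken from members measured on all 10 arrays: the 2 largest averages, the 2 smallest SDs, and the 2 highest and 2 lowest strain and dye estimates. Gene lists and tissue markers were not used, since probes have no gene names here. The members, the rule and the tests were chosen with earlier results of these data known.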

Additional observations from a re-analysis of the deposited data

Results flagged for a closer look

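Per-array measures of the members and the values of the 11 named probes were screened for a single array standing apart, in 34 groups of arrays of one strain. An array stood apart in 3 of them. Chance gives about 1 in 20 groups when groups are not picked by their values, but several named probes were picked for extreme strain or dye estimates, DAC027N19 and DAC007K18 among them, so that rate does not apply here. The share of members with a value was 16.5% on Canton S replicate 4, against 81.3% to 98.7% on the other Canton S arrays. DAC027N19 had a log2 ratio of 6.12 on Canton S replicate 4, against 1.62 to 2.74 on the others. DAC007K18 had 0.42 on Canton S replicate 3, against 2.80 to 3.10 on the others.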

How the results depend on the processing

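The limits are the unstated base, numerator and dye turning of the ratio, 5 arrays per strain and the unequal spread of the arrays. The rule gave 139 members with 4 or more arrays per strain, 30 with all 5, and 101 after scaling, of which 94 were among the 224. Other settings gave 160 to 279. The share of unseen values above 0, 96.3% with 1 array left out, was 89.6% from Berlin to Canton S, 86.6% from Canton S to Berlin, 62.7% from female Cy5 to Cy3 arrays and 81.2% from Cy3 to Cy5. Members called in the mean of both strains numbered 30 of 30 when only fully measured probes were fitted (86 of all 2284). Without Canton S replicates 1 and 5 together there were 37 of 37 (126 of all 2585). Of the fits without a single array, that without Canton S replicate 3 gave the fewest, 157 of 167 (297 of all 4066). The most, 218 of 224 (398 of all 4497), came without Canton S replicate 4. Except in that last fit, fewer than 224 members were tested. The rule used these values, so nothing is read from the counts. Without single arrays, 0 to 194 of the probes chosen on Berlin were called in Canton S, the most being 194 of 272 tested (465 of all 5882). Where there were 0, at most 1 probe was called in all. Of those chosen on Canton S, 16 of 251 tested (32 of all 3960) to 224 of 271 (423 of all 4208) were called in Berlin. The fits of one strain by itself and the fit without both Canton S arrays were chosen after seeing the data. The strain difference had 0 member calls in limma under each alternative. The number of members at an unadjusted p below 0.05 ran from 1 to 128. It was 1 of 30 (45 of all 2284) with only fully measured probes, and 128 of 224 (557 of all 4514) with scaled arrays. The dye difference had 0 member calls except for 2 with array weights (102 of all 4514). With scaled arrays 59 of all 4514 probes were called in it, and 0 members. The cause was not tested. Scaling turned the dye estimates of DAC005B18 and DAC032B20 to -0.11 and -0.80.

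Same-numbered arrays of the strains deviated from their strain means with correlations of -0.67, -0.46, 0.060, -0.11 and 0.61 over 2284 probes, so the numbers were not taken as pairs. With the replicate block and no dye term, 140 of 169 testable members were called in the mean (261 of all 3737), again on values the rule used. In the strain difference 0 were called, with 3 at an unadjusted p below 0.05 (54 of all 3737), and DAC039J17 had a limma adjusted p of 0.0541.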

Other observations

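Probes below the coverage minimum held a similar group. Of 5508 probes with a value that missed the minimum, 2260 had at least 3 values, and 348 of these were above 0 on every measured array, against 130 below 0. Of the 348, 221 had a plain mean from 1 to below 3 and 44 a mean of 3 or more. The 221 had a value on a median of 4 and at most 7 arrays. Of these, 46 were measured on Canton S arrays alone and 2 on Berlin arrays alone. The mirror image of the rule among eligible probes, negative throughout with an average of -1 or below and above -3, held 5 probes, and 17 were negative throughout at any size.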
